A study of Mus musculus with 3 samples.

Results

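The genes described here encode the enzymes that make serine, exchange it with glycine, pass its carbon through the folate cofactors and break glycine down, together with a serine transporter. They are Phgdh, Psat1, Psph, Shmt1, Shmt2, Mthfd2, Mthfd1l, Aldh1l1, Gldc and Slc1a4. They were chosen by symbol, and all 10 were found among the 19471 genes of the table. Poly(A) RNA was sequenced from cortical astrocytes of wild-type (WT) mice, from pups of postnatal day 1, after 7 days of culture. The single group holds 3 biological replicates, numbered 1, 2 and 3, from pups 5, 6 and 8, and no other genotype, age, cell type or treatment was analysed here. The titles give the age as P1 and the descriptions carry the name P0, and the titles were followed. The descriptions also carry the label Ctrl for each library.

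Serine is built from a glycolytic intermediate in a short pathway. Phgdh oxidises the intermediate, Psat1 transaminates it and Psph removes the phosphate. Serine hydroxymethyltransferases then turn serine into glycine and hand its carbon to tetrahydrofolate, in mitochondria through Shmt2 and in the cytosol through Shmt1. In the brain this synthesis is known to take place chiefly in astrocytes and radial glia, which release serine to neurons, and Aldh1l1, a folate enzyme, is widely used as an astrocyte marker.

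The libraries held 14380993, 25128038 and 9858626 reads in replicates 1, 2 and 3. Values are the deposited normalized read counts. Levels of different genes are compared after division by exon length, except for marker genes and their sums and where the text says so. Of the 11 other astrocyte markers in a list that includes Gfap, Aqp4 and Slc1a3, 10 averaged at least 10 normalized counts. Gfap was the highest with a mean of 52283, and the lowest were S100b at 68.7 and Gjb6 at 2.95. Markers of other cells were also present. The 7 microglial markers summed to 18361, 14379.9 and 12036 normalized counts in replicates 1, 2 and 3, against 127128, 132776 and 111815 for the astrocyte list. The 2 ependymal markers, Foxj1 and Rsph1, summed to 12626, 9352 and 10402, and the 4 oligodendrocyte precursor markers to 6598, 7520.2 and 5236. Olig1 alone gave 5984, 6876 and 4827 of the precursor sums, while Pdgfra, Cspg4 and Sox10 averaged 390, 151 and 14.9. The 5 fibroblast and mural markers summed to 2639, 2788 and 2317. The 3 endothelial markers in the table summed to 675, 650 and 765, and the 4 oligodendrocyte markers to 183, 206 and 148. The neuronal list summed to between 246 and 457, with Rbfox3, Snap25 and Slc17a7 at means under 10. Of its other genes, Syt1 had 222, 35.9 and 244 in replicates 1, 2 and 3, and Tubb3, Gad1 and Gad2 averaged 157, 24.4 and 10.3. In a bulk culture a lower share of cells of a type and less RNA per cell cannot be told apart.

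The promoters of 4 of the genes that carry motif letters counted further on are shown. Aldh1l1, Gldc, Psph and Shmt1 also carry CCAAT and are not shown, nor is another window of Psat1. Each printed promoter is a 300-base RefSeq window on GRCm38.p6, from 250 bases before the annotated start to 50 after it. It is printed 5′ to 3′ on the gene's strand. Capitals mark CCAAT on either strand and, in Slc1a4, also TTGCATCA.
Slc1a4 (chr11:20332664-20332963, minus strand): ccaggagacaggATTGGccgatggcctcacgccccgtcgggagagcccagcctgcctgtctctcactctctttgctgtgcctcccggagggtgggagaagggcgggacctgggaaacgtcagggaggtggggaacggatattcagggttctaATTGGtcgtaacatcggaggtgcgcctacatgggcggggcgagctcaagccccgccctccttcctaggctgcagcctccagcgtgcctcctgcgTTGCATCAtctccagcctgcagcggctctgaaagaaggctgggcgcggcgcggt
Psat1 (chr19:15925010-15925309, minus strand): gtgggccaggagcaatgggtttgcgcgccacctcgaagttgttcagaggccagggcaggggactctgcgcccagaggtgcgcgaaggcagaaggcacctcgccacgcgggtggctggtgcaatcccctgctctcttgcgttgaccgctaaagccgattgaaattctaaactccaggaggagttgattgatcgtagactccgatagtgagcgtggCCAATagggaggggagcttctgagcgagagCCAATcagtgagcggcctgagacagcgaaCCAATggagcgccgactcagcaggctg
Phgdh (chr3:98339920-98340219, minus strand): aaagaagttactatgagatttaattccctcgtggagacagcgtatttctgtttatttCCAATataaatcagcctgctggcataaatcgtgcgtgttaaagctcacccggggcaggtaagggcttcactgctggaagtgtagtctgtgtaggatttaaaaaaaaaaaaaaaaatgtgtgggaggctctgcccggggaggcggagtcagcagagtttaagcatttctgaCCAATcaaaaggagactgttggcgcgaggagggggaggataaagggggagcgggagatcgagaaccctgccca
Mthfd2 (chr6:83317555-83317854, minus strand): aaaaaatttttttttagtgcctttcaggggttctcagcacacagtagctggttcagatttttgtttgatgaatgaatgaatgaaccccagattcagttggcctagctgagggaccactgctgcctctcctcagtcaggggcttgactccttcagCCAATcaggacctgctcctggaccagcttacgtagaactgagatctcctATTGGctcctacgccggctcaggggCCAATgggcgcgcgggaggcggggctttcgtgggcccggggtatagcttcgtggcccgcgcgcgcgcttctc

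Each of the 10 genes averaged at least 100 normalized counts, and 5 averaged at least 1000. Aldh1l1, Psat1 and Phgdh led in level per kilobase of exon, Slc1a4, Gldc and Shmt2 followed, and the mitochondrial folate enzymes and Shmt1 were the lowest. The means ran over a wide range, with 1039 ± 141 normalized counts per kb for Aldh1l1 and 29.3 ± 4.61 for Shmt1 (SD, n = 3). The median of the 10 means was 251 normalized counts per kb, beside 71.7 over the 13897 genes of known length that averaged at least 10.

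**Figure D1:**
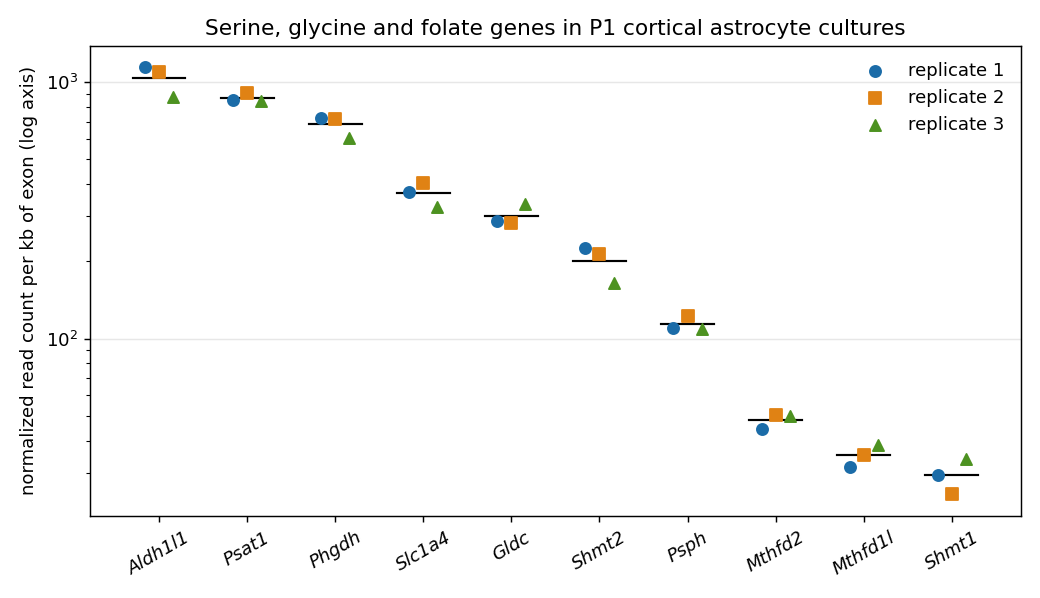
Normalized read count per kb of exon (log axis) of the 10 genes in each of the 3 libraries, with bars at the mean, ordered by mean. Aldh1l1 (1039), Psat1 (869) and Phgdh (684) stand at the top, on exon lengths that do not allow for the sequence Phgdh shares with pseudogenes, and Mthfd2, Mthfd1l and Shmt1 stand at 48.2 and below.

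Among the serine synthesis enzymes Psat1 stood highest per kb of full exon length and Psph lowest. Psat1, the phosphoserine aminotransferase (mm10 chromosome 19, 15904678 to 15947337, minus strand), had normalized counts of 3631, 3871 and 3592 in replicates 1, 2 and 3. Phgdh, the dehydrogenase of the first step (chromosome 3, 98313170 to 98339990, minus strand), had 1807, 1785 and 1510.3. Psph, the phosphatase of the last step (chromosome 5, 129765558 to 129787449, minus strand), had 477, 529.7 and 472. Per kb of full exon length the 3 genes did not overlap between libraries. The means per kb were 869 ± 35.5 for Psat1, 114 ± 7.34 for Psph and 684 ± 66.6 for Phgdh, at the 95.8, 62.9 and 94.4 percentiles of the 13897 genes. The difference of Psat1 minus Psph per kb was 2.95, 2.89 and 2.95 on the log2 scale, a mean of 2.93 ± 0.03 (SD, n = 3) or 7.62-fold.

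The level of each gene was compared with that of Phgdh within libraries, per kb, by limma across 13896 genes with Benjamini-Hochberg adjustment. With a threshold of 0.05 on the adjusted p, 2 of the other 9 genes lay above Phgdh and 7 below. Among all genes tested 4.57% lay above and 92.9% below, so a call below Phgdh is the usual outcome. Aldh1l1 lay above Phgdh by 0.60 ± 0.10 (SE) on the log2 scale (adjusted p = 0.000113, limma) in 3 of 3 libraries, and Psat1 by 0.35 ± 0.10 (adjusted p = 0.00663, limma) in 3 of 3. These calls depend on how the length of Phgdh is counted. Of the 50-base stretches of Phgdh transcripts, 47.8% also occur in transcripts of 20 other annotated genes, such as Phgdh-ps1. The 3 of those genes that are in the table had values of at most 4.07. The sources used here do not say how reads that match several genes were counted. With only unshared stretches counted as length, Phgdh stood at 1310.3 ± 128 per kb, Psat1 lay 0.58 below it (adjusted p = 0.000197, limma) and Aldh1l1 0.32 below it (adjusted p = 0.00805, limma). On that scale 0 of the 9 genes lay above Phgdh and 9 below, beside 1.96% and 96.9% of all genes tested, with unshared length applied to pathway genes alone. Over 14 alternatives the adjusted p ranged from 7.14e-07 to 1 for Psat1 and from 4.52e-08 to 0.481 for Aldh1l1. By the longest transcript both lay above Phgdh, Psat1 by 0.66 (adjusted p = 7.26e-05, limma) and Aldh1l1 by 0.32 (adjusted p = 0.00903, limma). Psat1 then stood above Aldh1l1. The order of these 3 genes thus differed between the ways of counting length. Without replicate 2 the call of Psat1 was lost, at 0.35 (adjusted p = 0.0773, limma).

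Of the genes for serine-glycine exchange, that of the mitochondrial enzyme was the higher. Shmt2 (chromosome 10, 127517123 to 127522444, minus strand) had 699, 664 and 512 normalized counts in replicates 1, 2 and 3, and Shmt1 (chromosome 11, 60788104 to 60811718, minus strand) had 114, 95.8 and 132. Per kb, Shmt2 averaged 201 ± 32.0 and Shmt1 29.3 ± 4.61 with no overlap, and Shmt2 made up 88.5%, 89.6% and 82.9% of their sum. The within-library difference of Shmt2 minus Shmt1 was 2.77 ± 0.44 on the log2 scale (SD, n = 3), or 6.81-fold, and it was smallest in replicate 3 at 2.27, where Shmt2 was lowest and Shmt1 highest. Both lay below Phgdh, Shmt2 by a log2 difference of -1.77 ± 0.11 (SE; adjusted p = 1.39e-08, limma) and Shmt1 by -4.54 ± 0.16 (adjusted p = 1.26e-10, limma). With 3 libraries an exact sign-flip test of a pair cannot give a p below 0.25, and it gave 0.25 here and for 7 of the other 8 pairs.

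The folate enzymes showed the opposite balance between compartments. Mthfd2, a mitochondrial dehydrogenase and cyclohydrolase (chromosome 6, 83305691 to 83325908, minus strand), had 155, 176 and 173 normalized counts. Mthfd1l, which releases formate inside mitochondria (chromosome 10, 3973118 to 4167081, plus strand), had 139.9, 156 and 171. Mthfd1, the cytosolic protein that holds the matching activities, had 2129, 2208 and 2243. Per kb, Mthfd1l averaged 35.1 ± 3.51 and Mthfd2 48.2 ± 3.35, against 494 ± 13.1 for Mthfd1, with no overlap. The log2 difference of Mthfd1l minus Mthfd1 was -3.81 ± 0.11 (SD, n = 3), so Mthfd1l stood 14.03-fold below, and that of Mthfd2 minus Mthfd1 was -3.35 ± 0.07, or 10.2-fold below. Mthfd2 exceeded its close relative Mthfd2l, at 17.4 ± 2.86 per kb, by 1.48 ± 0.16, or 2.79-fold.

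The formyl-folate dehydrogenases differed most between compartments. Aldh1l1 (chromosome 6, 90486427 to 90600203, plus strand), the cytosolic enzyme that oxidises 10-formyltetrahydrofolate, had 5158, 4950.2 and 3965 normalized counts in replicates 1, 2 and 3. Aldh1l2, its mitochondrial relative, had 188, 232 and 147. Per kb the means were 25.2 ± 5.67 for Aldh1l2 and 1039 ± 141 for Aldh1l1. The log2 difference of Aldh1l2 minus Aldh1l1 was -5.37 ± 0.20 (SD, n = 3), so Aldh1l2 stood 41.5-fold below, the widest gap of the 9 pairs. Aldh1l1 stood at the 96.7 percentile per kb of full exon length.

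**Figure D2:**
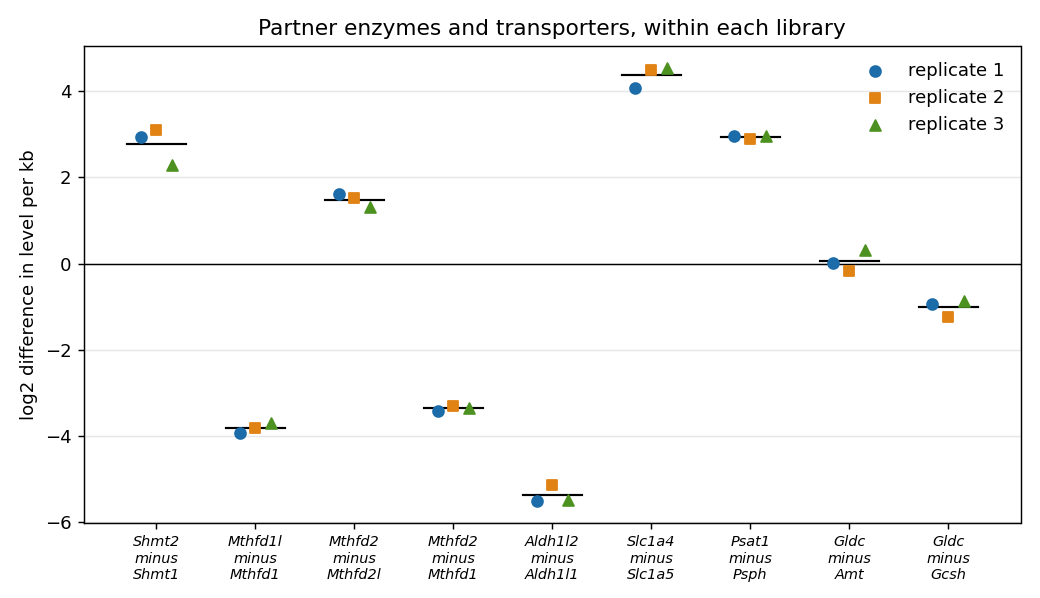
Log2 difference in level per kb of exon between partner genes in each library, with bars at the mean of 3. Shmt2 lies above Shmt1 (2.77), whereas the mitochondrial genes Mthfd1l (-3.81), Mthfd2 (-3.35) and Aldh1l2 (-5.37) lie below their cytosolic partners, and Gldc minus Amt straddles 0.

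All parts of the glycine cleavage system were detected. Gldc, its decarboxylase (chromosome 19, 30098447 to 30175429, minus strand), had 1754, 1718 and 2032 normalized counts in replicates 1, 2 and 3. The aminomethyltransferase gene Amt had 700.3, 776 and 653, and the carrier protein gene Gcsh had 874, 1043 and 955. Per kb, Gldc averaged 301 ± 28.2, Amt 291 ± 25.5 and Gcsh 607 ± 53.6. The log2 difference of Gldc minus Amt was 0.05 ± 0.25 (SD, n = 3), with both signs among the libraries (exact sign-flip p = 0.75), and that of Gldc minus Gcsh was -1.01 ± 0.19. The difference of Gldc minus Gcsh turned to 0.94 without division by length. Gcsh lay 0.17 below Phgdh with no call on full exon length (adjusted p = 0.165, limma), and 1.08 below it on unshared length (adjusted p = 2.24e-06, limma).

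Of the 2 related exchangers of neutral amino acids, Slc1a4 was the higher. Slc1a4, which carries serine and alanine (chromosome 11, 20302180 to 20332713, minus strand), had 1469, 1587 and 1277 normalized counts in replicates 1, 2 and 3. Slc1a5, which prefers glutamine, had 91.9, 74.1 and 57.4. Slc1a4 supplied 94.4%, 95.8% and 95.9% of their summed level per kb, and the log2 difference of Slc1a4 minus Slc1a5 was 4.37 ± 0.26 (SD, n = 3), or 20.6-fold. Slc1a4 lay below Phgdh by -0.90 ± 0.10 (SE; adjusted p = 4.69e-06, limma), at 368 ± 39.9 per kb.

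In the order of level per kb, 3 neighbouring pairs overlapped between libraries. Aldh1l1 minus Psat1 was 0.25 ± 0.18 on the log2 scale (SD, n = 3), Slc1a4 minus Gldc was 0.29 ± 0.29 and was positive in 2 of 3 libraries, and Mthfd1l minus Shmt1 was 0.26 ± 0.21. The other 6 steps of the order did not overlap, and the widest was that of Psph minus Mthfd2 at 1.24 ± 0.10. This order holds for full exon length. On unshared length Psat1 minus Phgdh reversed to -0.58. By the longest transcript Gldc stood above Slc1a4, at -0.88 and -1.29 against Phgdh. Annotated exons of Psph share 452 bases with Cct6a on the opposite strand, and those of Shmt1 share 184 with Smcr8. Those of Aldh1l1 share 499 with Gm15756 and those of Shmt2 share 32 with Ndufa4l2, also on the opposite strand. On the same strand Aldh1l1 shares 105 with Gm45901. The strand setting of the counting is not stated in those sources either.

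The wider pathway was described with lists of genes grouped by role, and genes were counted below or above Phgdh on full exon length. These counts stand beside the 92.9% of all genes tested that lay below, so nothing is read from them about a role. On unshared length no listed gene was called above Phgdh. Of the 6 mitochondrial folate genes, 6 lay below it, with the folate carrier gene Slc25a32 the lowest at 11.8 ± 2.90 normalized counts per kb. Of 8 cytosolic folate genes in the table, 1 lay above and 6 below. The 1 above was Aldh1l1, which lay 0.32 below on unshared length, and Mthfs, at 5, 20 and 8 reads, was too low to test. Of 9 transporters of serine, glycine and related amino acids, 8 lay below. The highest was the sodium-coupled transporter gene Slc38a1 at 474 ± 19.3 per kb, and the lowest was Slc7a10, an exchanger of D-serine and alanine that rested on 3, 14 and 4 reads. All 6 genes of folate uptake and retention lay below, between the hydrolase gene Ggh at 238 ± 12.1 per kb and the folate receptor gene Folr2 at 8.63 ± 1.64. Folr2 rested on 20, 25 and 10 reads. Of 6 methionine cycle and transsulfuration genes, 5 lay below. Mat2a, which makes S-adenosylmethionine, stood at 742 ± 69.9 per kb with no call against Phgdh on full exon length (difference 0.12, adjusted p = 0.294, limma). On unshared length Mat2a lay 0.75 below it (adjusted p = 2.67e-05, limma). Mtrr, the reductase that keeps methionine synthase active, was the lowest of them at 33.6 ± 4.86. Of the 5 genes that use serine, 4 lay below and 1, the dehydratase gene Sds, was too low to test at 6, 8 and 3 reads. Their highest was Sptlc1, a subunit of the enzyme that starts sphingolipid synthesis, at 209 ± 10.6 per kb.

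Atf4 encodes a transcription factor known to drive serine synthesis genes under amino acid shortage, and 18 genes of that response were listed. Atf4 had 1860, 2017 and 1831 normalized counts and lay 0.24 ± 0.10 (SE) above Phgdh per kb of full exon length (adjusted p = 0.043, limma), but 0.70 below it on unshared length (adjusted p = 4.83e-05, limma). Slc3a2, the shared heavy chain of amino acid exchangers, lay above it by 1.16 ± 0.12 (adjusted p = 2.65e-06, limma), a call that was lost on unshared length at 0.28 (adjusted p = 0.0504, limma). On full exon length 14 of the 17 genes tested lay below, and Atf5, a related transcription factor at 658 ± 77.8 per kb, had no call. The listed targets spread widely in level. Ddit4, Sesn2 and Slc7a5, named after their values were seen, stood at 390 ± 62.6, 235 ± 32.4 and 231 ± 44.3 per kb. Lower down, with per-kb means of 40.2 for Asns and 31.0 for Chac1, the asparagine synthetase gene Asns had 95.2, 122 and 112 normalized counts, the glutathione-degrading enzyme gene Chac1 had 56.1, 50.5 and 45.4, and the pseudokinase gene Trib3 had 5, 26 and 1 reads. Slc7a11, the cystine and glutamate exchanger, was the lowest per kb at 2.03 ± 0.419. The list's median was 121 normalized counts per kb, beside 71.7 over all genes that averaged at least 10, and 251 over the 10 genes described.

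**Figure D3:**
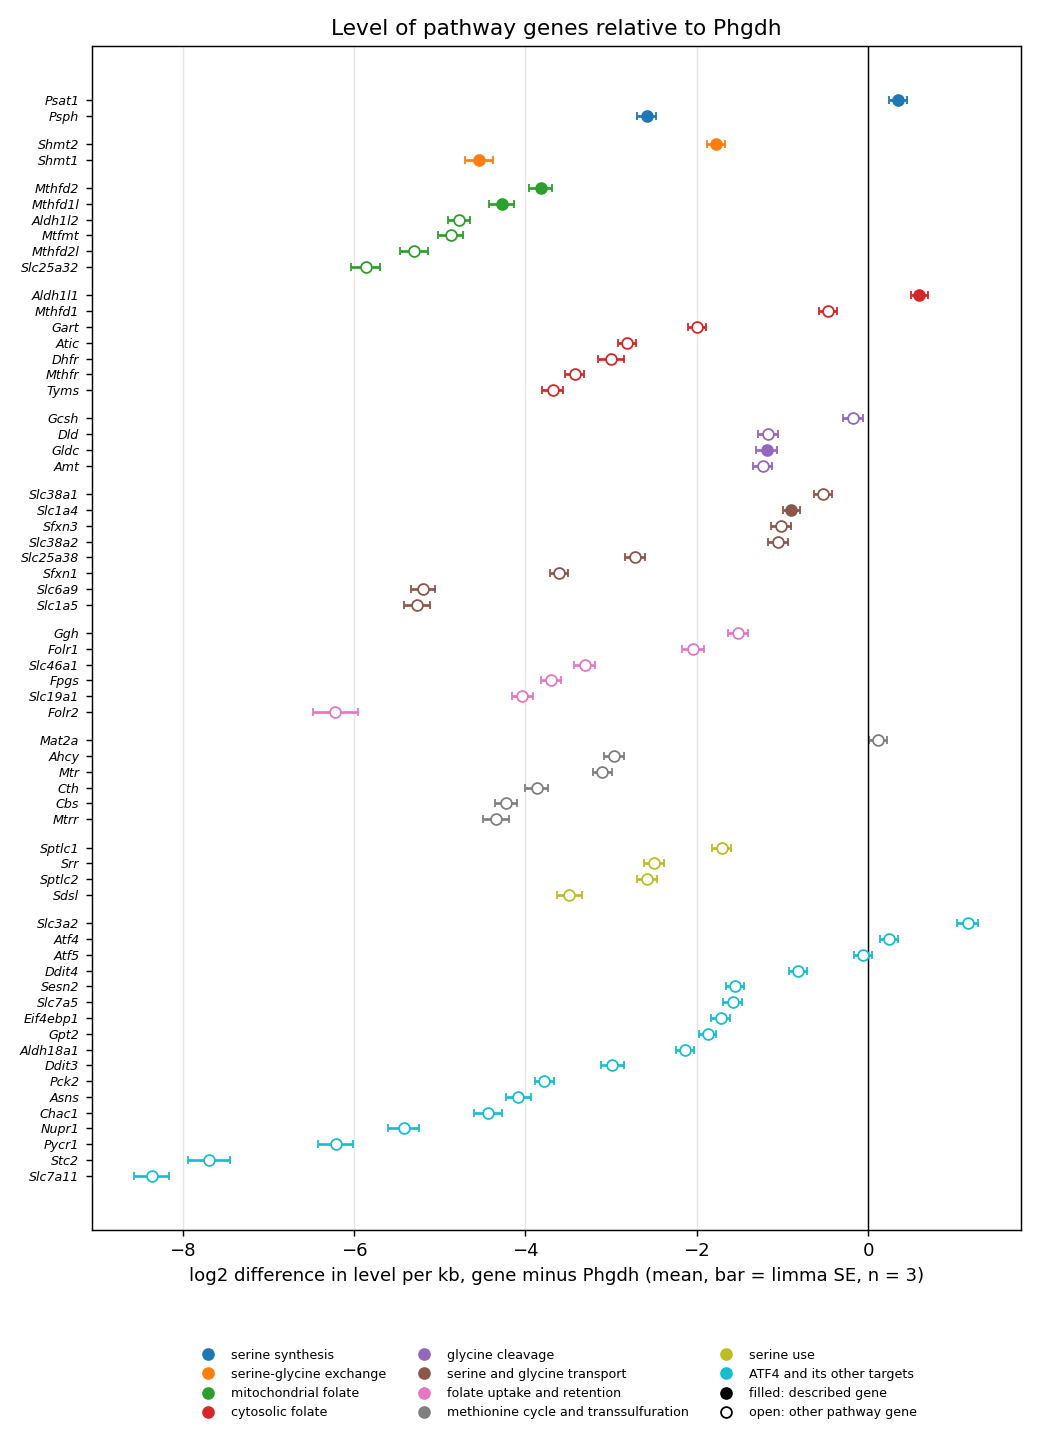
Log2 difference in level per kb of exon of each pathway gene minus Phgdh, as the mean of 3 libraries with the limma SE, grouped by role. Filled points are the genes described and open points the other listed genes. Aldh1l1 (0.60) and Psat1 (0.35) lie right of 0 on full exon length but left of it (-0.32 and -0.58) on unshared length, and Shmt1 (-4.54) lies farthest left of the filled points.

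The letters TGATGNAA, known as the composite element bound by ATF4 with C/EBP factors, were searched on both strands of the promoter windows. A window was found for all 10 genes, and 1 of them, Slc1a4, held the letters, as TTGCATCA on the printed strand with its first base 4 bases before the annotated start. Among all genes with a window, 1219 of 27025, or 4.51%, held them. Of the 16 listed genes of the ATF4 response with a window, 7 did, namely Asns, Chac1, Nupr1, Pck2, Pycr1, Slc7a11 and Trib3. That list names genes long known as targets, so its count is not independent of the motif. The letters CCAAT, searched after the sequences had been seen, occurred on either strand in 8 of the 10 genes. There were 3 copies each in Psat1 and Mthfd2, 2 in Phgdh and none in Shmt2 or Mthfd1l. The 3 copies of Psat1 lay in its printed window, and its other window (chr19:15924573-15924872) held none. Among all genes 41.1% held them. A match describes these letters and no binding was measured.

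The spread of the 10 genes between the 3 cultures lay between the 17.01 and 85.8 percentiles of genes expressed at a like level. Recovered reads of 7 of the 10 departed from the library totals beyond sampling error (chi-square, adjusted p under 0.05), beside 55.4% of all 13941 genes tested. This test sets the cultures against read sampling alone, so deeper genes are called more readily. Aldh1l1 had the strongest call (adjusted p = 1.6e-35, chi-square), followed by Slc1a4, Gldc, Phgdh, Shmt2, Psat1 and Shmt1, whereas Psph (adjusted p = 0.12, chi-square), Mthfd1l (adjusted p = 0.302) and Mthfd2 (adjusted p = 0.479) had none. Aldh1l1 rested on 20151 reads and Shmt1 on 453. The SD of log2 values ran from 0.06 for Psat1, at the 17.01 percentile among genes expressed at a like level, to 0.24 for Shmt2, at the 85.8 percentile. The median SD was 0.144 over the 10 genes and 0.14 over the 10571 genes that averaged at least 100. The biological coefficient of variation from edgeR was 9.79% to 15.3% for the 10 genes, and the trend fitted over all genes gave 10.7% to 15.6% at their abundance. The estimate of each gene is drawn toward that trend, so the likeness of these ranges is partly built in.

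Replicate 3 set most of these calls. Aldh1l1, Phgdh, Slc1a4 and Shmt2 were lowest in replicate 3, by 0.17 to 0.27 on the log2 scale below their means, as were Psat1 and Psph by 0.04 and 0.06. Gldc, Mthfd1l and Shmt1 were highest there, by 0.14 to 0.22, and Mthfd2 lay between the others. Thus 6 of the 10 were lowest and 3 highest in replicate 3, beside 37.5% and 35.7% of all genes that averaged at least 10. Without replicate 3, 2 of the 10 genes were called, Aldh1l1 and Psat1, beside 37.2% of all genes. Without replicate 2 the calls of Psat1 (adjusted p = 0.565, chi-square) and Shmt1 (adjusted p = 0.414, chi-square) ended. With TMM-scaled totals that of Shmt1 also ended (adjusted p = 0.0609, chi-square), and Psph was called (adjusted p = 0.0376, chi-square). Of the 11 astrocyte markers, 8 were also lowest in replicate 3, and its sum was 111815 there against 127128 and 132776 in replicates 1 and 2. Microglial markers were lowest there in 5 of 7, the 4 oligodendrocyte precursor markers were all lowest there, and the proliferation genes Mki67, Top2a and Cdk1 were all highest there, with a sum of 9703 against 7786 and 9038. Gfap alone gave 44795 of the sum in replicate 3, against 54430.2 and 57624 in replicates 1 and 2. The part of cell makeup in the differences between libraries was not tested.

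**Figure D4:**
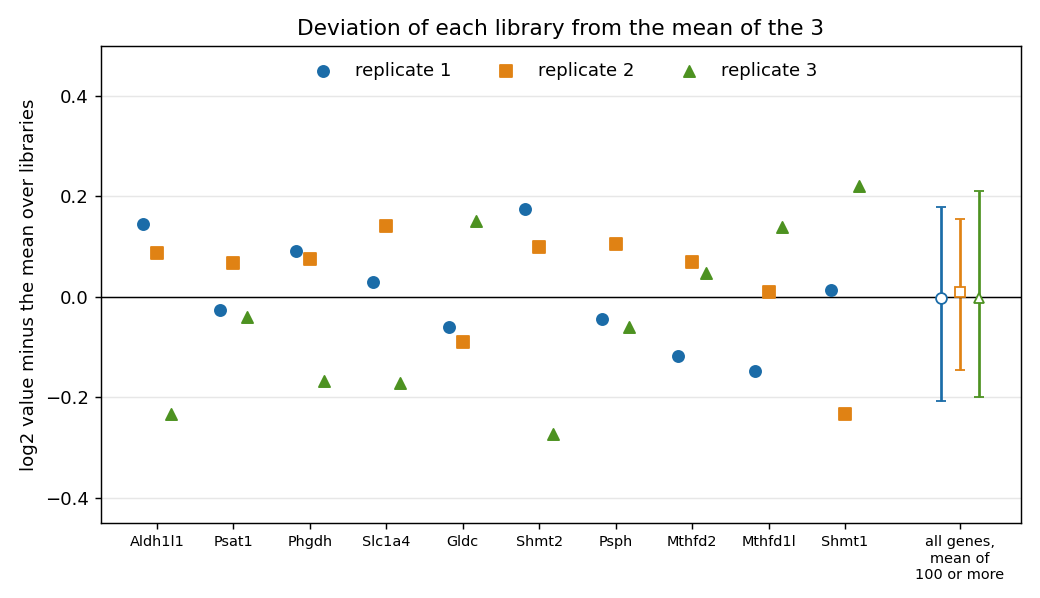
Log2 value of each library minus the gene's mean over the 3 libraries for the 10 genes, beside the median with the 10 to 90 percentile range over all genes that averaged at least 100. Replicate 3 lies lowest for Shmt2 (-0.27), Aldh1l1 (-0.23), Slc1a4 (-0.17) and Phgdh (-0.17) and highest for Shmt1 (0.22), Gldc (0.15) and Mthfd1l (0.14).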

How the data were processed

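Poly(A) RNA of 3 cultured astrocyte libraries was prepared with a stranded kit, per the labels. The deposited signal is a normalized read count per gene that the authors obtained with DESeq2 on build mm10, per the submitters' processing notes. For aligner, counting tool, strand setting and annotation, the status is: not given in the sources used here. Every value was a whole multiple of 1 read within 0.05 reads (100% of values), so reads were recovered and used in the count-based comparison of libraries. Size factors were 1.23, 2.12 and 0.836, and 0 reads allow up to 2.44, 1.42 and 3.59 normalized counts. Gene IDs were matched to GENCODE vM21 (99.5%) for positions and union exon length.

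Log2 values carry a pseudocount of 1, so differences of low genes are understated. Tests covered genes that averaged at least 10. Each gene was compared with Phgdh within libraries by an intercept-only limma model with trended variance. All differences share the same 3 values of Phgdh, and the errors rest largely on spread pooled over genes. Reads were compared between libraries by chi-square with expected reads from the totals, for genes with at least 30 reads. That chi-square test sets the spread against read sampling only, and the biological coefficient of variation came from edgeR. The p-values describe 3 cultures of 1 group. Both procedures were tested on simulated data. Limma called 6.75% of 2000 genes simulated at the level of Phgdh, and 96% of 100 simulated 1.5-fold from it. The chi-square test called 0.0437% of 13741 unchanged genes and 94% of 100 changed 1.5-fold in 1 library. Its simulated reads held read sampling only, so that rate does not cover variation between cultures.

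Shared sequence was counted as the share of a gene's distinct transcript stretches of 50 bases found in another annotated gene. The genes, lists and tests were chosen with earlier results of these data known. Named were the 10 genes, their partners in the pairs, the highest and lowest gene per kb of each role list, Atf4, Asns, Trib3 and Chac1. The marker genes, the genes with a motif, Atf5, Ddit4, Sesn2 and Slc7a5 were named outside that rule, after their values were seen. Python 3.11.15, numpy 2.4.6, pandas 2.3.3, SciPy 1.17.1, matplotlib 3.10.9, R 4.3.3, limma 3.58.1 and edgeR 4.0.16 were used.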

Additional observations from a re-analysis of the deposited data

How the results depend on the processing

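Of 356 alternative values, 319 were held to be unchanged. Counts of genes were held so within 1.5-fold of the main count. Other values were held so if they kept their direction and side of the threshold or moved by less than the replicate SD. The number of genes above Phgdh, 635, became 273 on unshared length, 1146 without division by length and 401 for differences beyond 1.5-fold. The 2 described genes above it, Aldh1l1 and Psat1, became 0 on unshared length, an alternative chosen after seeing the data, and 0 beyond 1.5-fold. On unshared length their differences from Phgdh reversed to -0.32 and -0.58, and without division by length that of Gldc reversed to 0.11. Leaving out 1 replicate gave 574 to 618 genes above Phgdh, 1 to 2 described genes above it, 4958 to 5415 genes that varied between libraries and 2 to 7 described genes that did. Fewer reads enter when a library is left out.

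Length moved the pairs most. By the longest transcript the log2 differences were -4.00 for Mthfd1l minus Mthfd1, -3.06 for Mthfd2 minus Mthfd1, -5.17 for Aldh1l2 minus Aldh1l1, 3.80 for Slc1a4 minus Slc1a5, 3.04 for Psat1 minus Psph, 0.51 for Gldc minus Amt and -0.45 for Gldc minus Gcsh. Undivided by length they were 0.55 for Mthfd2 minus Mthfd2l, -3.70 for Mthfd2 minus Mthfd1, -4.64 for Aldh1l2 minus Aldh1l1, 1.37 for Gldc minus Amt and 0.94, reversed, for Gldc minus Gcsh. In CPM and TMM-scaled CPM, Mthfd2 minus Mthfd1 was -3.27. Library scaling cancels in a difference within a library, but the pseudocount of 1 was added to CPM too, which are smaller numbers. With a pseudocount of 5 on the normalized counts the difference was -3.32. No paired analysis was possible because there is a single group, so replicate numbers pair no samples across groups. Differences between genes were taken within libraries throughout. Depth limits Trib3, Slc7a10, Sds, Mthfs and Folr2, with 1 to 26 reads per library. Of these, Folr2 was tested, as it averaged at least 10 normalized counts.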
